A study of Mus musculus with 64 samples.

Results

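The genes described here are 7 genes of MHC class I antigen presentation, B2m, H2-K1, H2-D1, Tap1, Tap2, Psmb8 and Psmb9. They were chosen by symbol, all 7 have a row in the count table, and they are 7 of its 24530 gene symbols. Their reads were counted in 64 single cells sorted from the teeth of XLacZ4 mice, 32 cells from molars and 32 from incisors. XLacZ4 is a mouse line with a lacZ reporter that marks mural cells of vessels. The sorted cells were positive for FDG, a substrate that fluoresces after cleavage by beta-galactosidase, and the labels name every cell a pericyte. Both groups share the strain, the reporter and the selection by FDG, and are labelled by the tooth they came from. No single sort is named, so whether molar and incisor cells were sorted and prepared together is not known. The labels name 0 animals and give neither age nor sex, so each tissue is 1 sample, cells are not replicates, and no test was made.

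Nearly every nucleated cell of a mouse displays peptides of its own proteins on MHC class I molecules, which CD8 T cells and natural killer cells read. The proteasome cuts the proteins, the transporter Tap1-Tap2 carries the peptides into the endoplasmic reticulum, and there they are loaded onto a heavy chain (H2-K1 or H2-D1) paired with the light chain beta-2 microglobulin (B2m). Psmb8 and Psmb9 are catalytic subunits that replace constitutive ones in the immunoproteasome. Interferon gamma is a known inducer of all of these genes, and class I is known to be high on macrophages and lower on resting mesenchymal and mural cells.

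The cells were split by 2 genes outside the set. Rgs5, a pericyte marker, at 500 CPM (counts in each 1000000 library counts) or more with 0 reads of Csf1r, the macrophage growth factor receptor, made a cell mural-like (15 cells, 9 molar and 6 incisor). At least 1 Csf1r read with Rgs5 below 500 CPM made a cell a macrophage (47 cells, 22 molar and 25 incisor). The labels call these 47 cells pericytes too, and their reads go against that name: all 11 macrophage markers other than Csf1r had reads in them, and of the 11 pericyte and smooth muscle markers other than Rgs5, Pdgfrb, Cspg4, Kcnj8 and Tagln had 0. Without Rgs5, the summed pericyte and smooth muscle list reached at most 125 CPM per cell in the macrophages (median 0.626) and was at least 1264 CPM in the mural-like cells (median 8110). Without Csf1r, the summed macrophage list had a median of 0 and a highest value of 174 CPM in the mural-like cells, with 9 of its 11 genes at 0, and ran from 3326 to 60407 CPM in the macrophages. The threshold was far from most cells: the lowest mural-like cell had 570 CPM of Rgs5 (incisor cell 2) and the next 14729 CPM, and the highest macrophage had 167 CPM (incisor cell 25). Molar cell 10, with 0 reads of both genes, and incisor cell 13, with 3280 Rgs5 and 839 Csf1r reads, fell in neither class. Total counts per cell ran from 514492 to 3171734, with medians of 1428700 in the macrophages and 2767910 in the mural-like cells, so the cells with the lower class I levels were the more deeply sequenced. Incisor cell 2 stands apart, with 922 genes with a read, the fewest of all cells, and 15.2% of its reads from Malat1.

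Of the 7 genes, 6 lie in the H2 complex on chromosome 17 and B2m lies apart, at chr2:122147686-122153083 (plus strand; GENCODE M21 gene span on GRCm38, the assembly of mm10). H2-K1 spans chr17:33996017-34000347 on the minus strand and H2-D1 chr17:35262730-35267499 on the plus strand. Between them are Psmb9 (chr17:34181987-34187764, minus strand), Tap1 (chr17:34187553-34197225, plus), Psmb8 (chr17:34197721-34201454, plus) and Tap2 (chr17:34203527-34216321, plus). Psmb9 and Tap1 are divergent neighbours whose spans overlap at their starts. RefSeq promoters on GRCm38.p6 were found for 6 of the 7 genes, all but Tap2.

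The stretches below are shown because the light chain and both heavy chains, the 3 genes that dominate the counts, share 3 motif matches that are not all found in the windows of Tap1, Psmb8 and Psmb9. Each is written 5′ to 3′ on the strand of its gene, with the matched motifs in capitals. The motifs were an NF-kappaB-like site (GGG, any 2 bases, TT, any base, CC), TTTCNNTT (core of the interferon-stimulated response element) and TGACG (core of the cAMP response element), each searched on both strands in the 250 bases before the RefSeq start. H2-K1 is chr17:34000380-34000488 on the minus strand, bases -141 to -33 from its start. H2-D1 is chr17:35262893-35263001 on the plus strand, bases -201 to -93. B2m is chr2:122147540-122147617 on the plus strand, bases -147 to -70.
H2-K1: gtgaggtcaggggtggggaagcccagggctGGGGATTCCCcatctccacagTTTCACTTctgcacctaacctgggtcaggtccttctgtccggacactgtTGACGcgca
H2-D1: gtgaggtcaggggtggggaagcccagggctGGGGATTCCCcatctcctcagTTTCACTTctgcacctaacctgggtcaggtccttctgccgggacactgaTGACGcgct
B2m: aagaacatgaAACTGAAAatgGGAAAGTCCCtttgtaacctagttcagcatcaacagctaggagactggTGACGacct
The H2-K1 and H2-D1 stretches are identical at 104 of 109 bases, and the letters of all 3 motifs are the same in both. The differences, counted from 1 at the 5′ end with the H2-K1 base before the position, are A48T, T89C, C91G, T100A and A109T. In B2m the NF-kappaB-like and interferon-response matches are in the opposite order and on the opposite strand, and TGACG again lies nearest the start.

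Over 27025 RefSeq promoters, 21.6% held TTTCNNTT, 4% held the NF-kappaB-like site and 17.9% held TGACG. A match is only a description of letters. The region between the RefSeq starts of Tap1 and Psmb9 is shown because it lies before both of these starts. On the GENCODE spans given above it lies inside Psmb9, so the annotations differ in the start of that gene. It is chr17:34187331-34187555, the 225 bases before the RefSeq start of Tap1, written on the strand of Tap1.
Tap1: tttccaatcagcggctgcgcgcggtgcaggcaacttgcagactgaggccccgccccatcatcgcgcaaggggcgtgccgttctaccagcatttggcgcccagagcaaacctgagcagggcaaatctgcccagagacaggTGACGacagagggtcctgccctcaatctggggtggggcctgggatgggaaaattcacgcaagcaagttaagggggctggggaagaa
Of the 3 motifs it holds TGACG alone, 86 bases before the Tap1 start, and the same letters on the other strand are the only match of Psmb9. Psmb8 has a match to none of the 3 in its 250 bases. That window, chr17:34197945-34198194, lies inside the GENCODE span of Psmb8, and the bases before that span were not searched. The H2-D1 stretch also lies inside the GENCODE span of its gene.

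The light chain and the heavy chains were detected in nearly all cells and were higher in the macrophages. B2m ran from 59.0 to 4245 CPM with a median of 1729 over the 47 macrophages, and from 0 to 919 CPM, median 313, over the 15 mural-like cells. None of the mural-like cells reached the macrophage median, and 10 of the 47 macrophages lay at or below the highest mural-like cell. Summed over cells, B2m was at 1875 CPM in the macrophages and 352 CPM in the mural-like cells, a ratio of 5.32 (95% interval 5.23 to 5.41). This interval and those that follow cover counting error alone, and several reads can come from 1 molecule, since these libraries carry no molecular identifiers.

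H2-K1, the heavy chain from the centromeric end of the complex, ran from 39.7 to 3353 CPM with a median of 851 in the macrophages. Its mural-like range was 0 to 328 CPM around a median of 211. Here too 0 mural-like cells reached the macrophage median, while 12 macrophages lay within the mural-like range. The summed levels were 946 and 174 CPM, a ratio of 5.45 (5.32 to 5.59).

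H2-D1, the other classical heavy chain, ran from 2.17 to 6212 CPM with a median of 1658 in the macrophages and from 0 to 855 CPM, median 249, in the mural-like ones. Only 7 macrophages lay at or below the highest mural-like cell, and 0 mural-like cells reached the macrophage median. The lowest macrophage, incisor cell 8, had 2 reads of H2-D1. The summed levels were 2035 and 279 CPM, a ratio of 7.30 (7.16 to 7.44).

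Added together, the 3 surface genes separated the classes in all but a few cells. Their sum ran from 1197 CPM, in incisor cell 30, to 10384 CPM in the macrophages, with a median of 4298. The mural-like sums ran from 0 to 1348 CPM around a median of 677. Incisor cell 30 was the 1 macrophage within the mural-like range, and molar cells 31 and 19 and incisor cell 22 were the mural-like cells above it. All 3 genes had reads in 47 of 47 macrophages and in 11 of 15 mural-like cells. Incisor cell 2 had 0 reads of all 7 genes, molar cell 15 had H2-K1 alone, incisor cell 28 lacked B2m and incisor cell 24 lacked H2-D1.

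**Figure D1:**
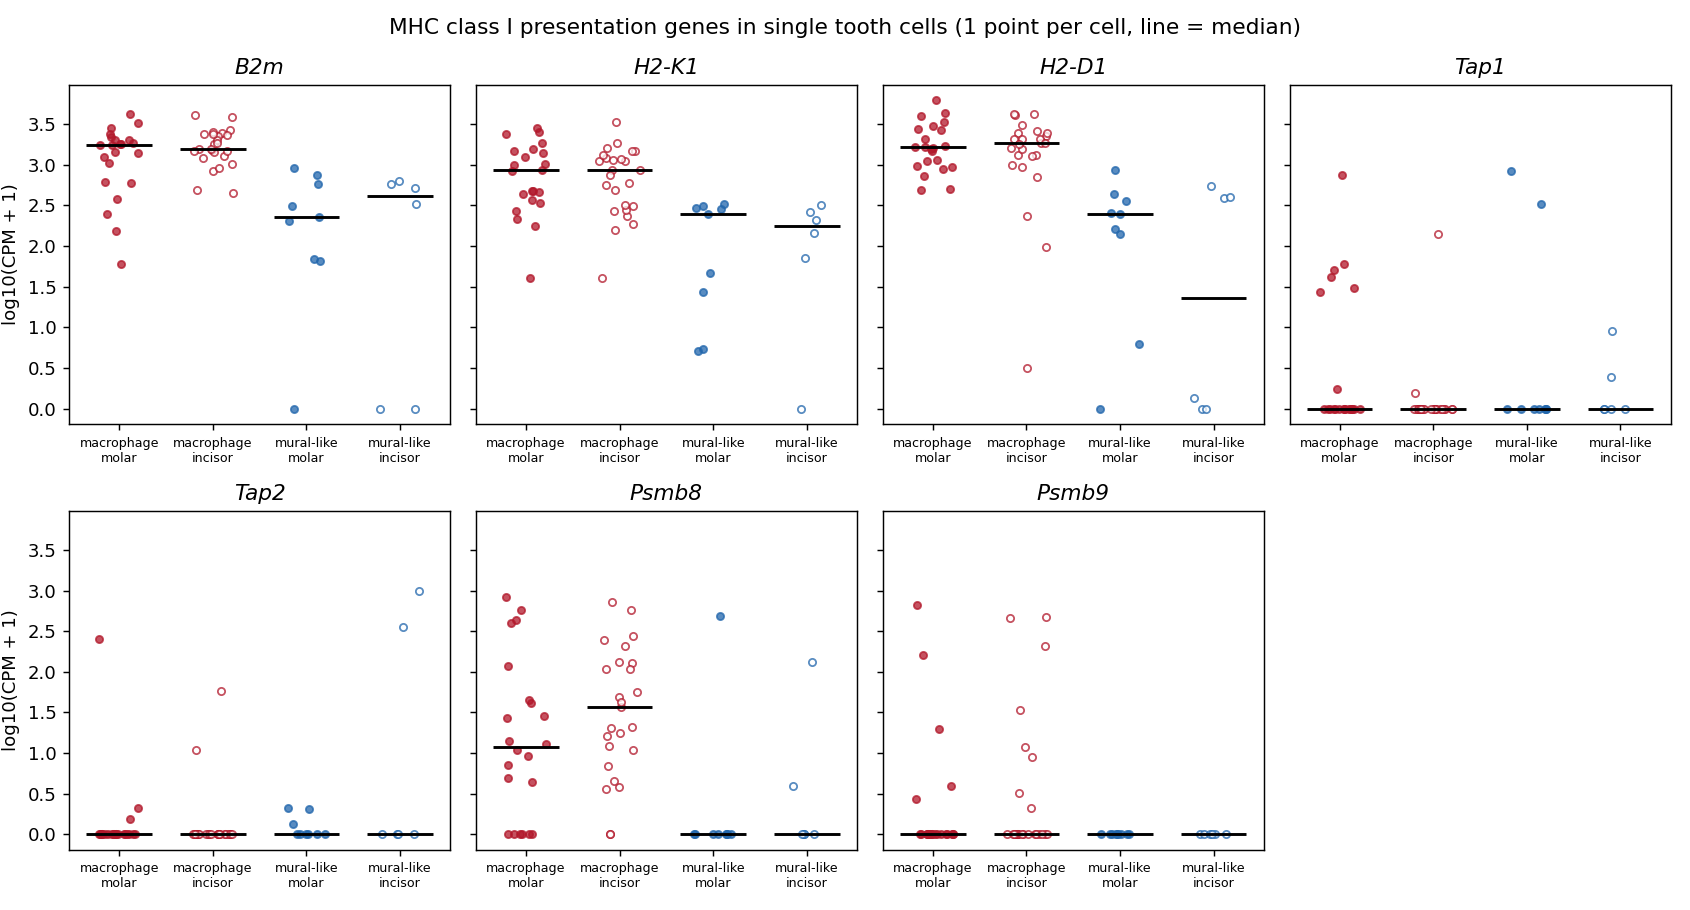
CPM of each gene in single cells on a log10(CPM + 1) axis, by class (red macrophages, blue mural-like cells) and tissue (filled molar, open incisor), with 1 point per cell and a line at the group median. For B2m, H2-K1 and H2-D1 the red medians lie above every blue point. For Tap1, Tap2 and Psmb9 most cells lie at 0 and a few lie above 2 on the axis.

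Which heavy chain was higher varied from cell to cell. H2-D1 exceeded H2-K1 in 39 of 47 macrophages and in 8 of 15 mural-like cells, and H2-K1 exceeded H2-D1 in 8 and 6. The share of H2-D1 in the sum of both ran from 0.15% to 96.6% in the macrophages, with a median of 72.9%. In the mural-like cells with reads of either it ran from 0 to 98.8%, with a median of 64.4%. Molar cells 23 and 13 had H2-D1 at 360 and 249 CPM with H2-K1 at 4.41 and 4.17 CPM, and molar cell 4 had the reverse, 5.30 CPM of H2-D1 and 245 CPM of H2-K1. Reads from a stretch common to both genes, or to other class I genes, cannot be assigned. Of all 50-base windows of the GENCODE transcripts, 4.08% of those of H2-K1 are also in H2-D1, 5.44% of those of H2-D1 are also in H2-K1, and 0 of those of B2m are in either. Neither the labels nor the files give the H2 haplotype of the mice or say how reads with several matches were treated.

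The transporter genes had reads in few cells. Over both tissues together their summed level was higher in the mural-like cells. Tap1, which encodes an ATP-binding half-transporter, had reads in 9 of 47 macrophages and in 4 of 15 mural-like cells. Molar cell 11 had 750.5 CPM, incisor cell 21 had 139 CPM, 5 other macrophages had 26.1 to 58.4 CPM and the last pair had 1 read each. Among the mural-like cells, molar cell 4 had 845 CPM, molar cell 17 had 329 CPM, and incisor cells 10 and 24 had 7.95 and 1.45 CPM. The summed level was 23.9 CPM in the macrophages and 66.5 CPM in the mural-like cells, 2.78 times higher in the latter (2.62 to 2.96). That ratio was 1.11 without molar cell 4 and 8.28 without molar cell 11, so single cells set its size.

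Tap2, the partner of Tap1, had reads in 5 macrophages and 5 mural-like cells. Molar cell 21 had 249 CPM and incisor cell 7 had 57.0 CPM, and the other macrophages had at most 9.79 CPM. The mural-like reads came almost wholly from incisor cell 24, at 978 CPM, and incisor cell 28, at 355 CPM, with at most 3 reads in each of 3 molar cells. The summed levels were 5.95 and 80.0 CPM, 13.5 times higher in the mural-like cells (12.2 to 14.9), and 4.91 times without incisor cell 24 or 49.0 times without molar cell 21. Reads of both transporter genes in the same cell were found in 1 macrophage (molar cell 21) and 3 mural-like cells (molar cells 4 and 17 and incisor cell 24), and in those mural-like cells the lower of the pair had 1 to 3 reads.

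The immunoproteasome genes were higher in the macrophages. Psmb8 (the subunit beta-5i) ran from 0 to 843 CPM over the macrophages with a median of 19.4, with reads in 39 of 47. In the mural-like cells 3 of 15 had reads, molar cell 1 at 489 CPM, incisor cell 22 at 131 CPM and incisor cell 32 at 2.90 CPM. The summed levels were 129 and 49.3 CPM, a ratio of 2.62 (2.49 to 2.75), and 12 without molar cell 1, which gave 80.0% of the mural-like reads.

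Psmb9 (the subunit beta-1i) was detected in 13 of 47 macrophages and in 0 of 15 mural-like cells, a count of 0 with an upper limit of 20% by the 3-count rule and of 21.8% by the exact interval. The highest macrophages were molar cell 27 at 654 CPM, incisor cell 11 at 473 CPM and incisor cell 6 at 464 CPM, and the macrophage median was 0. The summed macrophage level was 51.7 CPM, 667 times the limit of 3 counts over all mural-like cells. This value and the other bounds of this kind below cover counting error alone. They take no account of how few cells were sampled. Psmb8 and Psmb9 were both detected in 11 of the 41 macrophages that had reads of either. Psmb9 and Tap1, which share their start region, were both detected in 4 of the 18 macrophages with reads of either.

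**Figure D2:**
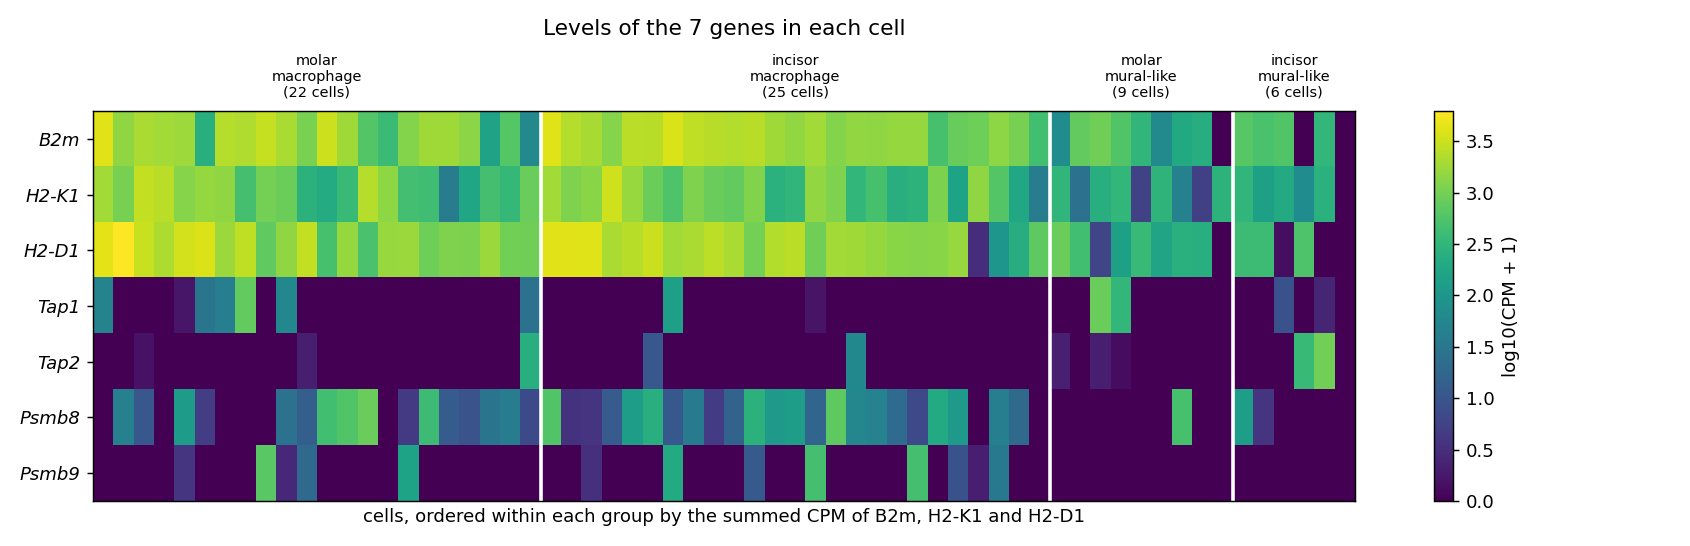
Level of each gene (rows) as log10(CPM + 1) in each of 62 cells (columns), in blocks by tissue and class and sorted within a block by the sum of B2m, H2-K1 and H2-D1. The upper 3 rows are filled in nearly all cells, and the Tap1, Tap2 and Psmb9 rows are at 0 in most, with the Psmb9 row empty in all 15 mural-like cells.

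Because the mural-like cells were deeper, each cell was also thinned to 1040000 reads, which kept 57 cells and left out 1 molar and 6 incisor macrophages. Over 40 thinned macrophages, B2m, H2-K1 and H2-D1 had reads in all 40, Psmb8 in 33 (82.5%, interval 67.2 to 92.7%), Psmb9 in 11 (27.5%, 14.6 to 43.9%), Tap1 in 8 (20%, 9.05 to 35.6%) and Tap2 in 5 (12.5%, 4.19 to 26.8%). Over the 15 mural-like cells, H2-K1 had reads in 14, B2m in 12, H2-D1 in 11, Tap1 and Tap2 in 4 each (26.7%, 7.79 to 55.1%), Psmb8 in 3 (20%, 4.33 to 48.1%) and Psmb9 in 0. These intervals treat the cells as independent draws, which cells of 1 sample are not, so they describe these cells and are no test between the classes. The unthinned shares were 39 of 47 macrophages for Psmb8, 13 for Psmb9, 9 for Tap1 and 5 for Tap2. Genes of other cell types give a measure of stray reads in the macrophages. Acta2, a smooth muscle actin, had reads in 23 of the 47, at most 4 in a cell, while Amelx, an enamel matrix gene, had reads in 8 of the 47, up to 812 in a cell. No 1 number of reads thus marks the stray level for the Tap and Psmb genes.

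**Figure D3:**
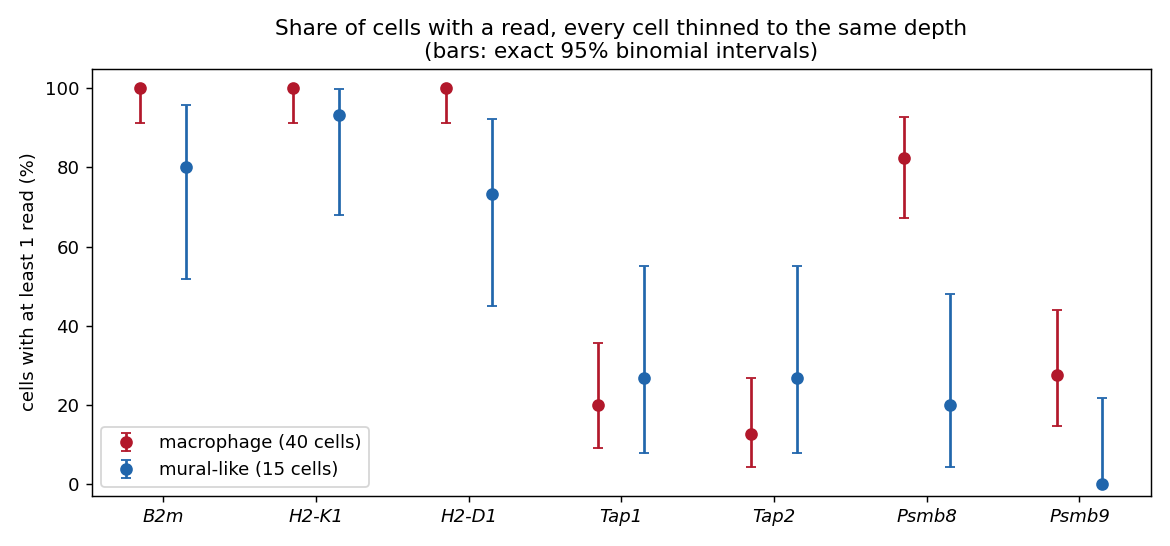
Share of cells with at least 1 read of each gene after thinning every cell to the same depth, for 40 macrophages (red) and 15 mural-like cells (blue), with exact 95% binomial intervals as bars. Psmb8 is at 82.5% against 20%, and Psmb9 at 27.5% against 0.

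Against the whole transcriptome the class difference of these genes has to be read with care, since most genes differed between 47 and 15 cells. All 7 genes passed 2-fold between the classes on summed CPM, and so did 70.7% of the 9798 genes with a mean of at least 5 CPM. In the macrophage direction it was 5 of 7 against 35% of all genes, and in the mural-like direction 2 of 7 against 35.7%. The median log2 ratio was 2.41 over the 7 genes and -0.07 over all genes, and the log2 ratios of B2m, H2-K1 and H2-D1 exceeded those of 75.8%, 76.0% and 77.8% of all genes. Scaling by TMM factors moved the median of all genes to 0.25 and the log2 ratio of B2m from 2.41 to 2.74. Without any 1 cell the median of the 7 genes stayed between 2.29 and 2.50.

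The surface genes had like ratios in both tissues. In the molar cells B2m was 5.05, H2-K1 5.52 and H2-D1 6.72 times higher in the macrophages, and in the incisor cells 5.38, 5.32 and 7.99 times. Psmb8 was at 129 CPM in the macrophages of either tissue, against 64.4 CPM in the molar and 25.4 CPM in the incisor mural-like cells. The latter values came from molar cell 1 and almost wholly from incisor cell 22. Psmb9 was at 46.1 CPM in molar and 56.8 CPM in incisor macrophages, or 15.2 CPM without molar cell 27 and 36.2 CPM without incisor cell 11. Within the molar cells 5 of 6 measured genes passed 2-fold (78% of all genes), 4 toward the macrophages (41.9%) and 1, Tap1, toward the mural-like cells (36.1%). Tap1 was 2.59 times higher in the molar mural-like cells, 1.06 times without molar cell 4 and 13.6 times without molar cell 11, and Psmb8 was at 0 in them without molar cell 1. Within the incisor cells it was 6 of 6 (76.3%), 5 toward the macrophages (40.3%) and 1, Tap2, toward the mural-like cells (36%). Tap2 was 69.4 times higher in the incisor mural-like cells, 27.7 times without incisor cell 24 and 289 times without incisor cell 7. The Psmb8 ratio there, 5.06, was 174 without incisor cell 22.

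In each tissue the other transporter gene was below the filter of a mean of 5 CPM and lay the other way. In the molar cells Tap2 was 36.6 times higher in the macrophages (9.27 against 0.253 CPM, with 6 mural-like reads), and lower in them without molar cell 21. In the incisor cells Tap1 was 4.87 times higher in the macrophages (8.11 against 1.66 CPM), and lower in them without incisor cell 21.

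The summed levels of the transporter pair split by tissue in the mural-like cells, while the numbers of cells with at least 1 read did not. Tap1 had reads in 2 of 9 molar and 2 of 6 incisor mural-like cells, and Tap2 in 3 of 9 and 2 of 6. At least 5 reads of Tap1 were found in 2 molar and 1 incisor cells, and of Tap2 in 0 molar and 2 incisor cells. Tap1 was at 107.5 CPM in the 9 molar and 1.66 CPM in the 6 incisor mural-like cells, and Tap2 at 0.253 and 206 CPM, which gives ratios of 64.6 toward molar and 813 toward incisor. Each of these 4 levels rests on at most 3 cells: Tap1 is 26.3 times higher in molar without molar cell 4 and 439 times without incisor cell 10, and Tap2 is 325 times higher in incisor without incisor cell 24. B2m (336 and 379 CPM), H2-K1 (170 and 179 CPM) and H2-D1 (286 and 267 CPM) differed by at most 1.13 times between molar and incisor mural-like cells, and for each of the 3 at least 1 cell left out turned the direction. Psmb8 was 2.53 times higher in molar on the reads of 1 cell (87.1 times without incisor cell 22) and Psmb9 was at 0 in both, so 3 of 6 measured genes passed 2-fold, against 68.6% of all genes. Toward molar it was 2 (31.4% of all genes) and toward incisor 1 (37.3%).

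Between molar and incisor macrophages the surface genes were close. B2m was at 1694 CPM over 22 molar and 2037 CPM over 25 incisor macrophages, 1.2 times higher in incisor, while the median cell was higher in molar (1746 against 1583 CPM). H2-K1 was at 938 and 954 CPM and H2-D1 at 1926 and 2134 CPM. Psmb8 had the same summed level in both, but its median cell was at 10.9 CPM in molar and 36.3 CPM in incisor. Without thinning, Psmb8 had reads in 16 of 22 molar and 23 of 25 incisor macrophages. After thinning, Psmb8 had reads in 14 of 21 molar (66.7%, 43.0 to 85.4%) and 19 of 19 incisor macrophages (82.4 to 100%), and with at least 5 reads in 14 and 16. The incisor macrophages without a Psmb8 read, incisor cells 8 and 30, were among the cells left out as too shallow to thin. Psmb9 was 1.23 times higher in incisor, 3.74 times without molar cell 27, and higher in molar without incisor cell 11 or incisor cell 6.

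Tap1 and Tap2 were the genes past 2-fold between the macrophages of the 2 tissues, 2 of 7 against 56.8% of all genes. Tap1 was at 41.4 CPM in molar and 8.11 CPM in incisor macrophages, 5.11 times higher in molar, and 0.978 times without molar cell 11 and 1539 times without incisor cell 21. Tap2 was at 9.27 and 2.97 CPM, 3.12 times higher in molar, and 33.7 times higher in incisor without molar cell 21, or 13 times higher in molar without incisor cell 7. Over all 32 cells per tissue, B2m was 1.42, H2-K1 1.21 and H2-D1 1.32 times higher in incisor, with 9 mural-like cells among the molar and 6 among the incisor cells. There Tap1 was 10.6 times higher in molar and Tap2 10.5 times higher in incisor, 2 of 7 past 2-fold against 50.9% of all genes, and single cells again set the size. Tap1 was 6.62 times higher in molar without molar cell 4 and 135 times without incisor cell 21, and Tap2 was 4.02 times higher in incisor without incisor cell 24 and 382 times without molar cell 21. Psmb8 was at 99.8 CPM in molar and 97.6 CPM in incisor, and Psmb9, 1.5 times higher in incisor, was higher in molar without incisor cell 11 or incisor cell 6 and 4.66 times higher in incisor without molar cell 27.

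Levels of different genes were compared per kb of exon. In the macrophages the order was B2m (2180 CPM per kb), H2-D1 (789), H2-K1 (322), Psmb8 (38.1), Psmb9 (14.1), Tap1 (4.36) and Tap2 (1.57). In the mural-like cells it was B2m (410 CPM per kb), H2-D1 (108), H2-K1 (59.1), Tap2 (21.2), Psmb8 (14.6), Tap1 (12.1) and Psmb9 (0). The first 3 places are the same in both classes and the places of the other 4 rest on the few cells named above. The exon length used is the union over all annotated transcripts, so the values per kb are approximate.

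Other genes of the pathway were read from lists. The constitutive catalytic subunits, which the immunoproteasome subunits replace, were within 2-fold on the summed scale for 2 of 3. Psmb5 was at 83.3 CPM in the macrophages and 86.2 CPM in the mural-like cells, Psmb6 at 444 and 415 CPM, and Psmb7 at 21.9 and 52.6 CPM, a 2.41-fold difference that was 1.41-fold without molar cell 17 and 3.98-fold without incisor cell 9. The list had 0 of 3 genes past 2-fold toward the macrophages (against 35% of all genes) and 1 of 3 toward the mural-like cells (33.3%, against 35.7%). Its median log2 ratio was -0.05.

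Of 6 other immunoproteasome and activator genes, 2 (33.3%, against 35% of all genes) passed 2-fold toward the macrophages and 1 (16.7%, against 35.7%) toward the mural-like cells, with a median log2 ratio of 0.70. Psmb10, the third inducible catalytic subunit, had reads in 18 of 47 macrophages (119 CPM) and in 1 of 15 mural-like cells, molar cell 15, whose 2823 reads put the group at 72.9 CPM. Psme2, a subunit of the interferon-induced proteasome activator, was 3 times higher in the macrophages (5.05 times without incisor cell 10). Psme4, another activator, was 4.57 times higher there (10.9 times without molar cell 17, 2.67 times without incisor cell 20). Psme3 was 3.20 times higher in the mural-like cells (2.05 times without molar cell 19, 7.03 times without incisor cell 21).

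Of 15 peptide loading and trimming genes, 5 (33.3%, against 35% of all genes) passed 2-fold toward the macrophages and 3 (20%, against 35.7%) toward the mural-like cells, with a median of 0.53. Tapbp (tapasin), which bridges the transporter and the heavy chain, had reads in 35 macrophages and 6 mural-like cells, at 338 and 10.6 CPM, a ratio of 32.0, or 148 without molar cell 13. Tapbpl, a tapasin-related peptide editor, had reads in 11 macrophages and 0 mural-like cells (64.9 CPM, at least 838-fold higher than the limit of 3 counts, and 37.6 CPM without incisor cell 21). Ero1l, an oxidase of the endoplasmic reticulum, was 32.1 times higher in the mural-like cells, with reads in 6 of them and in 2 macrophages (21.2 times without molar cell 19, 1588 times without incisor cell 1).

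Among the nonclassical class I heavy chains, 8 of 11 measured genes (72.7%, against 35% of all genes) passed 2-fold toward the macrophages. Toward the mural-like cells 1 passed it (9.09%, against 35.7%), and the median was 2.01. With any 1 cell left out the counts were 7 to 9 and 1 to 2. Hfe, a regulator of iron uptake, was at 148 CPM in the macrophages and 0 in the mural-like cells (at least 1913-fold). H2-M3, which presents formylated peptides, was at 63.9 CPM against 3 reads in all mural-like cells, a ratio of 825 with a counting interval of 282 to 4001. Mr1, which presents microbial metabolites, was 10.8 times higher in the mural-like cells on the reads of 3 of them (3.82 times without molar cell 17, 47.7 times without incisor cell 26).

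Among class I regulators and interferon signalling genes 7 of 20 passed 2-fold toward the macrophages, 35% as over all genes, and 4 (20%, against 35.7%) toward the mural-like cells, with a median of 0.29. Nlrc5, a transactivator of class I genes, had reads in 4 macrophages and 0 mural-like cells (24.4 CPM, 9.45 CPM without molar cell 2). Irf1, an interferon-induced transcription factor, was at 644 and 535 CPM. Nfkb1 was 12.9 times higher in the macrophages (78.0 times without molar cell 17) and Irf8, a myeloid factor, 15.6 times (1335 times without incisor cell 24). Irf7 was at 90.1 CPM in the macrophages and 0 in the mural-like cells, and at 32.0 CPM without molar cell 8.

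The interferon-induced genes moved both ways. Of 24 measured, 12 (50%, against 35% of all genes) passed 2-fold toward the macrophages and 8 (33.3%, against 35.7%) toward the mural-like cells. The median was 0.94 and ran from 0.50 to 1.80 as single cells were left out. Within the molar cells it was 12 of 19 (63.2%, against 41.9%) and 5 (26.3%, against 36.1%). Within the incisor cells it was 10 of 23 (43.5%, against 40.3%) and 8 (34.8%, against 36%). The median was 4.08 in molar and 0.60 in incisor. Oas1a, a sensor of double-stranded RNA, had reads in 18 macrophages (95.8 CPM) and Parp14 in 15 (119 CPM, 57.7 CPM without molar cell 21), both with 0 in the mural-like cells. Irgm1, an interferon-inducible GTPase, had 0 reads in the macrophages and reads in 4 mural-like cells. Summed over all mural-like cells it was at 187 CPM (at least 4661-fold, and 89.3 CPM without molar cell 17).

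The class II pathway, which presents peptides taken up from outside, had 4 of 6 measured genes (66.7%, against 35% of all genes) past 2-fold toward the macrophages. Toward the mural-like cells it had 0 (against 35.7%), and the median was 3.19. The class II chains themselves had few reads: H2-Aa and the transactivator Ciita had 0 in the macrophages, H2-Eb1 had 1 read and H2-Ab1 had reads in 2 cells. Cd74, the invariant chain, had reads in 20 of 47 macrophages, at 214 CPM summed over all 47, and 0 in the mural-like cells. Ctss, a lysosomal protease, was at 2141 CPM with reads in all 47 and 0 in the mural-like cells. Ifi30, a lysosomal thiol reductase, was 31.3 times higher in the macrophages (865 times without incisor cell 32). B2m, H2-K1 and H2-D1 had reads in both classes, while Cd74 and Ctss had none in the mural-like cells. The other measured genes of the class II list, H2-DMa, H2-DMb1, H2-DMb2 and Ifi30, had reads in 2 mural-like cells each. Within the incisor cells 3 of 6 measured genes (50%, against 40.3% of all genes) passed 2-fold toward the macrophages. There 1 of 6, H2-DMb1, passed it toward the mural-like cells (16.7%, against 36%).

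**Figure D4:**
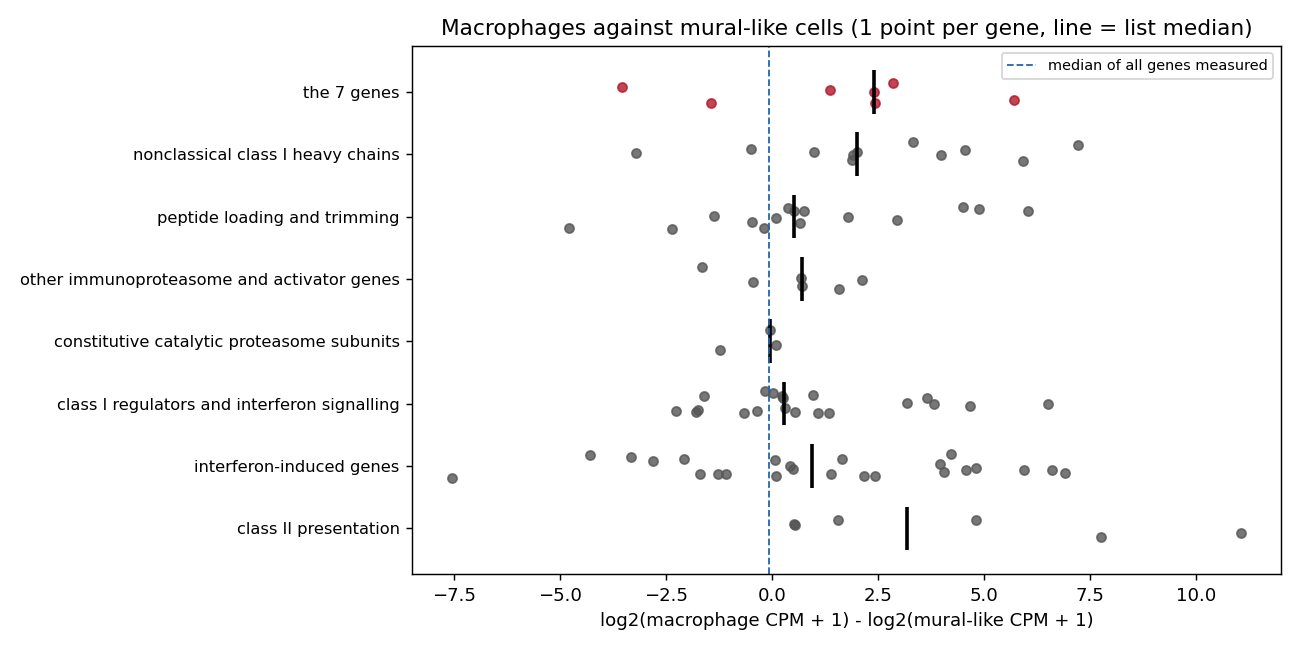
Log2 ratio of summed macrophage over mural-like CPM (pseudocount 1 CPM) for the 7 genes (red) and for measured genes of the related lists (grey), 1 point per gene, with a line at each list median and a dashed line at the median of all genes. The 7 genes lie at a median of 2.41 with Tap1 and Tap2 below 0, and the constitutive catalytic subunits lie at a median of -0.05.

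Across the 47 macrophages the members varied with little relation to each other. The highest Spearman correlations of log2(CPM + 1) were 0.37 for H2-K1 with H2-D1 and 0.33 for B2m with H2-D1, and the latter was 0.04 in molar and 0.61 in incisor macrophages. For Psmb8 with Psmb9 the value was -0.15. These are descriptions over cells that are not replicates and whose total counts ran from 514492 to 2933124. Most of the values involve genes at 0 in many cells.

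The genes whose pattern was most like H2-K1 were other class I loci. Over 1553 genes with reads in at least 50% of the macrophages, the highest Spearman correlations with H2-K1 were those of H2-K2 (0.63), H2-T23 (0.60), Gm11127 (0.59), Gm8909 (0.59) and Gm7030 (0.55). With H2-D1 they were those of H2-Bl (0.57), H2-Q1 (0.56), H2-T-ps (0.55), H2-Q10 (0.55) and Gm8909 (0.52). These loci share sequence with the classical heavy chains: 11.6% of the 50-base windows of Gm7030, 7.10% of Gm11127, 5.60% of Gm8909, 5.02% of H2-Q1 and 3.41% of H2-K2 are also in H2-D1. For Gm7030 (5.09%), Gm11127 (3.24%), Gm8909 (2.20%) and H2-K2 (0.85%) fewer are also in H2-K1. H2-Bl, the highest for H2-D1, shares 1.80% of its windows with that gene. H2-Q10 goes the other way, with 3.97% of its windows in H2-K1 and 1.49% in H2-D1. Summed over 11 such loci, reads amounted to 9.19% of the H2-K1 and H2-D1 reads in the macrophages and to 14.3% in the mural-like cells. Reads of the classical genes placed at these loci and reads of their own cannot be told apart, which also holds for the H2-Q and H2-T genes counted among the nonclassical chains above.

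The genes most like B2m were C1qa (0.59), Lgmn (0.59), Cox5a (0.58), C1qc (0.57) and Apoe (0.57), of which C1qa and C1qc are complement genes and Lgmn a lysosomal protease. B2m also had a correlation of 0.49 with the total count of a cell, so depth moves with this pattern, and its part in it was not tested. The highest values for Psmb8 were lower, with Rasa4 at 0.47 and Prrc2c at 0.43, followed by Snx2 (0.42) and Dusp1 (0.40). For the mean of the 7 genes they were Sbno1 (0.50), Ndufb7 (0.49), Ypel3 (0.47), Btg1 (0.47) and Itm2b (0.45), with the total count at 0.41.

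Other cell types were read from their marker lists, and their part in the differences above was not tested. T, NK and B cell markers and neutrophil and mast cell markers had 0 reads in the mural-like cells. In the macrophages each of the lists for T, NK and B cells, dendritic cells, neutrophils and mast cells, endothelium, fibroblasts and dental epithelium had a median of 0 per cell. Cd3e, Cd3d and Flt3 had 0 reads in all macrophages, while Cd79b (11 cells, 43.8 CPM, 24.9 CPM without incisor cell 7) and Siglech (5 cells, 50.6 CPM, 27.2 CPM without incisor cell 5) had some. Klrb1c had reads in 2 macrophages, Zbtb46 in 1, and Xcr1 and Batf3 in 3 each. Toward the macrophages 2 of 2 measured T, NK and B cell genes and 3 of 4 dendritic cell genes passed 2-fold, against 35% of all genes. The remaining dendritic cell gene, Batf3, passed it toward the mural-like cells (25%, against 35.7%). Of the fibroblast and pulp list, 4 of 6 measured genes (66.7%, against 35.7% of all genes) passed 2-fold toward the mural-like cells. The other 2, Dcn and Lum, passed it toward the macrophages (33.3%, against 35%), with reads in 4 and 5 macrophages. The median log2 ratio was -2.98. The summed list was at 2549 CPM in the median mural-like cell, with Dcn, Lum, Pdgfra and Dpt at 0.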

How the data were processed

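The authors deposited unscaled counts, as whole numbers of reads for each symbol in each cell, from Smart-Seq2 libraries of polyA RNA, per the labels. Per the submitters' processing notes, Trim Galore, HISAT2 (2), Seurat (3) and mm10 were used. How counting, annotation and reads with several matches were handled is not given in the sources used here. The table has 188 columns: of these 64 match a labelled cell and 124 match none and were not used.

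CPM values are counts in each 1000000 library counts, of single cells or summed over the cells of a group. Log2 ratios used a pseudocount of 1 CPM, over genes with a mean of at least 5 CPM. A gene past 2-fold is only a size, since no p-value was computed. Ratios have exact conditional intervals and shares exact Clopper-Pearson intervals, both at 95%. The former cover counting error alone, and the latter treat cells as independent draws. A sum of 0 was set to 3 counts over the group for a bound, which covers counting error alone and not the number of cells. Thinning used 1 seeded draw per cell. Values came from Python 3.11.15 with NumPy 2.4.6, pandas 2.3.3 and SciPy 1.17.1, TMM factors from edgeR 4.0.16, and the script was tested on simulated data.

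The members and gene lists were chosen with earlier results of these data known. Named were the 7 members, fixed genes (Psmb10, Psmb5, Psmb6, Psmb7, Tapbp, Nlrc5, Irf1 and Cd74), and up to 3 genes of each list with the largest ratio at a mean of at least 20 CPM and the same direction in both tissues. Also named were the 5 genes most alike each member with reads in at least 50% of macrophages, and cells giving at least 25% of a member's reads or moving a ratio by over 1.5 times. A few genes that this rule names are not reported here. By that rule the marker lists give C1qb, Cd14 and Lyz2 for macrophages (at least 42072-, 50910- and 46535-fold higher than in mural-like cells), and Rgs5, Kcnj8 and Myl9 for pericytes (30803, 1331 and 2364 CPM in mural-like cells, 6.38, 0 and 0.0134 CPM in macrophages). For fibroblasts they give Col1a1, Col3a1 and Postn (252, 2310 and 453 CPM against 24.1, 2.33 and 3.92). Alternatives were equal weight per cell, TMM, totals without Rn45s and Malat1, other filters, pseudocounts and class limits, and each cell left out.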

Additional observations from a re-analysis of the deposited data

Results flagged for a closer look

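Within the mural-like cells of a tissue, single cells stood far from the rest of their group, by a gap larger than Dixon's 95% critical value. That value assumes normal data and is used here only to pick cells out, since in a group otherwise at 0 a single cell with reads passes it. Of the 9 molar mural-like cells, molar cell 4 had 845 CPM of Tap1 (1594 reads) and molar cell 1 had 489 CPM of Psmb8 (1526 reads). Of the 6 incisor mural-like cells, incisor cell 24 had 978 CPM of Tap2 (2028 reads), incisor cell 22 had 131 CPM of Psmb8 (373 reads) and incisor cell 10 had 7.95 CPM of Tap1 (22 reads). Chance flags about 1 in 20 groups where the data are normal. Most of the 12 groups examined had cells at 0, so the number that chance would flag here is not known.

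Incisor cell 13, which had reads of both Rgs5 and Csf1r and is in no class, had 1369 CPM of B2m, 647 CPM of H2-K1 and 1743 CPM of H2-D1. These levels lie within the macrophage range and above the highest mural-like cell for each of the 3 genes, and the cell had 0 reads of Tap1, Tap2, Psmb8 and Psmb9.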

How the results depend on the processing

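The number of the 7 genes past 2-fold between macrophages and mural-like cells, 7, was 7 under equal weight per cell, TMM scaling, totals without Rn45s and Malat1, no filter, a pseudocount of 5 CPM, a limit of 1.5-fold, cells of at least the thinning depth, both other class limits and without incisor cell 2, and 6 to 7 when any 1 cell was left out. Between molar and incisor macrophages the number was 2, and 1 with a pseudocount of 5 CPM; leaving out 1 cell gave 1 to 3. Leaving out 1 cell turned the direction of 13 of the 42 ratios of a member in a comparison, 8 of them within 2-fold and 5 past it. The 5 are given as log2 ranges. Tap2 in molar macrophages over mural-like cells ran from -0.20 to 3.17. Tap1 in incisor macrophages over mural-like cells ran from -1.38 to 2.87. Between molar and incisor macrophages Tap1 ran from -0.029 to 5.37 and Tap2 from -1.87 to 2.58, and between the mural-like cells Psmb8 ran from -4.72 to 5.23. No paired analysis was possible because the numbers of the cells only name them and no test was made. The 2 alternatives without incisor cell 2, or without the cells of neither class, were chosen after seeing the data. With 1 sample per tissue and 15 mural-like cells, a gene with reads in 1 to 5 cells cannot be placed by its summed level, and a spread between animals is not known.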
